A study of Mus musculus with 15 samples.

Results

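The receptors of the ERBB family and the ligands of the epidermal growth factor (EGF) family were followed in mouse mammary gland epithelial organoids, which are pieces of mammary epithelium kept in culture. Gene names in the count table chose 9 genes of the 54456 listed: the receptor genes Egfr, Erbb2 and Erbb3 and the ligand genes Nrg1, Tgfa, Hbegf, Btc, Epgn and Ereg. A filter on low counts left 18140 genes for testing, and all 9 were among them. The organoids were wild type (WT) and were set in a migration assay beside beads soaked in either FGF10, a fibroblast growth factor made by the mammary stroma, or bovine serum albumin (BSA), the carrier control. The study asked whether the epithelium passes through an epithelial-mesenchymal transition while it migrates. There were 5 groups of 3 libraries: organoids taken at 0 h, and organoids taken at 36 h and at 72 h with BSA beads or with FGF10 beads. The medium of all groups was DMEM/F12 with L-Ala-Gln, ITS and P/S, and the labels name no added EGF family ligand. Ages of the mice and the number of animals are not given in the sources used here, and the labels do not say that libraries came from separate cultures. The p-values therefore measure the spread between libraries, which may be technical. The titles of the FGF10 72 h libraries read FGF0, and their treatment label, FGF10, was followed.

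ERBB receptors are cell surface tyrosine kinases that work in pairs. EGFR, also called ERBB1, binds TGF-alpha, HB-EGF, betacellulin, epigen, epiregulin and amphiregulin. ERBB3 binds neuregulins but has very weak kinase activity of its own, and ERBB2 has no known soluble ligand and serves as the favoured partner of the others. The ligands are made as membrane proteins and are freed by ADAM proteases, and the paired receptors then signal through RAS and ERK and through PI3K and AKT. In the mammary gland, amphiregulin and EGFR are known for their part in duct growth, and neuregulin for lobule formation.

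Epgn, which encodes epigen, was the member with the largest change. It was close to undetected at 0 h, and the fitted estimates in the 4 later groups were 41.1-fold to 128-fold higher. Erbb2 fell in the same 4 comparisons (log2 differences of -1.16 to -1.25), and Erbb3 also fell in all 4. The Erbb3 calls with BSA beads were lost in some other settings of the test. Between the bead types, only Nrg1, which encodes neuregulin 1, passed the test, 3.34-fold higher with FGF10 at 72 h, and that call did not hold when any 1 of the compared libraries was left out. Egfr did not pass in any comparison.

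The promoters of Epgn, with the largest rise, and of Erbb2, with the fall that held in every setting tried, are shown with that of Tgfa, a ligand gene whose window held motif matches. RefSeq gave a start site for 5 of the 9 genes (Egfr, Erbb2, Tgfa, Btc and Epgn), on build GRCm38.p6, and each window is the 250 bases before it, 5′ to 3′ on the gene's strand. The windows lie at chr5:91027267-91027516 (Epgn), chr11:98412234-98412483 (Erbb2) and chr6:86194972-86195221 (Tgfa), all on the plus strand. Motif matches on either strand are in capitals. The bases just after the RefSeq start site were looked up in GENCODE transcripts of the same gene. They were found for Erbb2, only in their last 30 bases for Tgfa, and not for Epgn. The Epgn window may therefore not lie at the start of its GENCODE transcripts.
Epgn promoter: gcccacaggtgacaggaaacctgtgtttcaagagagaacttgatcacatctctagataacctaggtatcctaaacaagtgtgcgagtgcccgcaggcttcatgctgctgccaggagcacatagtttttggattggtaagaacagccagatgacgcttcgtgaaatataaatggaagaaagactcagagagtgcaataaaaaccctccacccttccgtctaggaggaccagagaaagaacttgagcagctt
Erbb2 promoter: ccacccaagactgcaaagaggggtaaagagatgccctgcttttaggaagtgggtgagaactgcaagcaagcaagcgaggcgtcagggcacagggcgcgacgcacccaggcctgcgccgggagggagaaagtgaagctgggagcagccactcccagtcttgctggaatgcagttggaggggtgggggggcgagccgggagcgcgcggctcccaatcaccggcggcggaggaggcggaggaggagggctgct
Tgfa promoter: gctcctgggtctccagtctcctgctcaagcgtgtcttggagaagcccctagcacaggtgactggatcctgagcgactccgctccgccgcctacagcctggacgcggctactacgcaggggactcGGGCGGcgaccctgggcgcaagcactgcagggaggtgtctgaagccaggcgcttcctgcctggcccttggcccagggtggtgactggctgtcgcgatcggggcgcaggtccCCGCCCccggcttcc
The motifs searched were AP-1 (TGANTCA), found in 6.75% of 32851 windows of the same length, ETS (CCGGAAG), in 6.91%, the GC box (GGGCGG), in 32.7%, and CRE (TGACGTCA), in 1.55%. Both strands were searched, and no matches overlapped in these windows. The Tgfa window held 2 GC box matches. The Egfr window held 1 ETS and 1 GC box match, and the Erbb2, Btc and Epgn windows held none of the 4. Guanine and cytosine made up 46.8% of the Epgn window, 66% of the Erbb2 window and 69.2% of the Tgfa window, against a median of 52.4% over all windows. A match is a run of letters and not a measured binding site.

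Levels are in CPM, the fragments assigned to a gene scaled to a common library total, with TMM factors to make libraries comparable. Libraries held 11965322 to 24261233 assigned fragments. Differences are log2 estimates ± SE from edgeR's quasi-likelihood test with Benjamini-Hochberg adjustment over the 18140 genes, and a gene is called below an adjusted p of 0.05. Epithelial markers were present in every library, with 0 of 10 luminal and 0 of 8 basal markers at 0 counts. Their levels moved between the groups. The summed luminal markers lay at 29400 to 43954 CPM at 0 h and at 13153 to 24789 CPM in the later libraries. The summed basal and myoepithelial markers lay at 20410 to 22633 CPM with FGF10 at 72 h and at 9114 to 11043 CPM with BSA. At 36 h they lay at 11926 to 14828 CPM and 8496 to 9360 CPM. Immune markers summed to 1176 to 1515 CPM at 0 h and 77.7 to 377 CPM later. At 72 h the immune, adipocyte, endothelial and fibroblast sums were each lower in all 3 FGF10 libraries than in all 3 BSA libraries. Adipocyte markers summed to 11.3 to 74.8 CPM against 427 to 434 CPM. Fibroblast and stromal markers summed to 193 to 468 CPM against 647 to 764 CPM, and Postn alone averaged 333 and 629 CPM. Called lower were 6 of 7 tested immune, 5 of 9 tested adipocyte, 2 of 10 endothelial and 0 of 10 fibroblast markers. None of them was called higher, and 2.98% of all tested genes were lower. The mitochondrial share of counts at 72 h was 3.90% to 4.55% with FGF10 and 2.21% to 2.60% with BSA. At 36 h the FGF10 replicate 4 stood apart, at 1.11% against 3.60% and 3.97% in its group, and on principal component 3. Results that change without that library are given below. In these bulk samples, fewer cells of a type and less RNA per cell cannot be told apart.

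**Figure D1:**
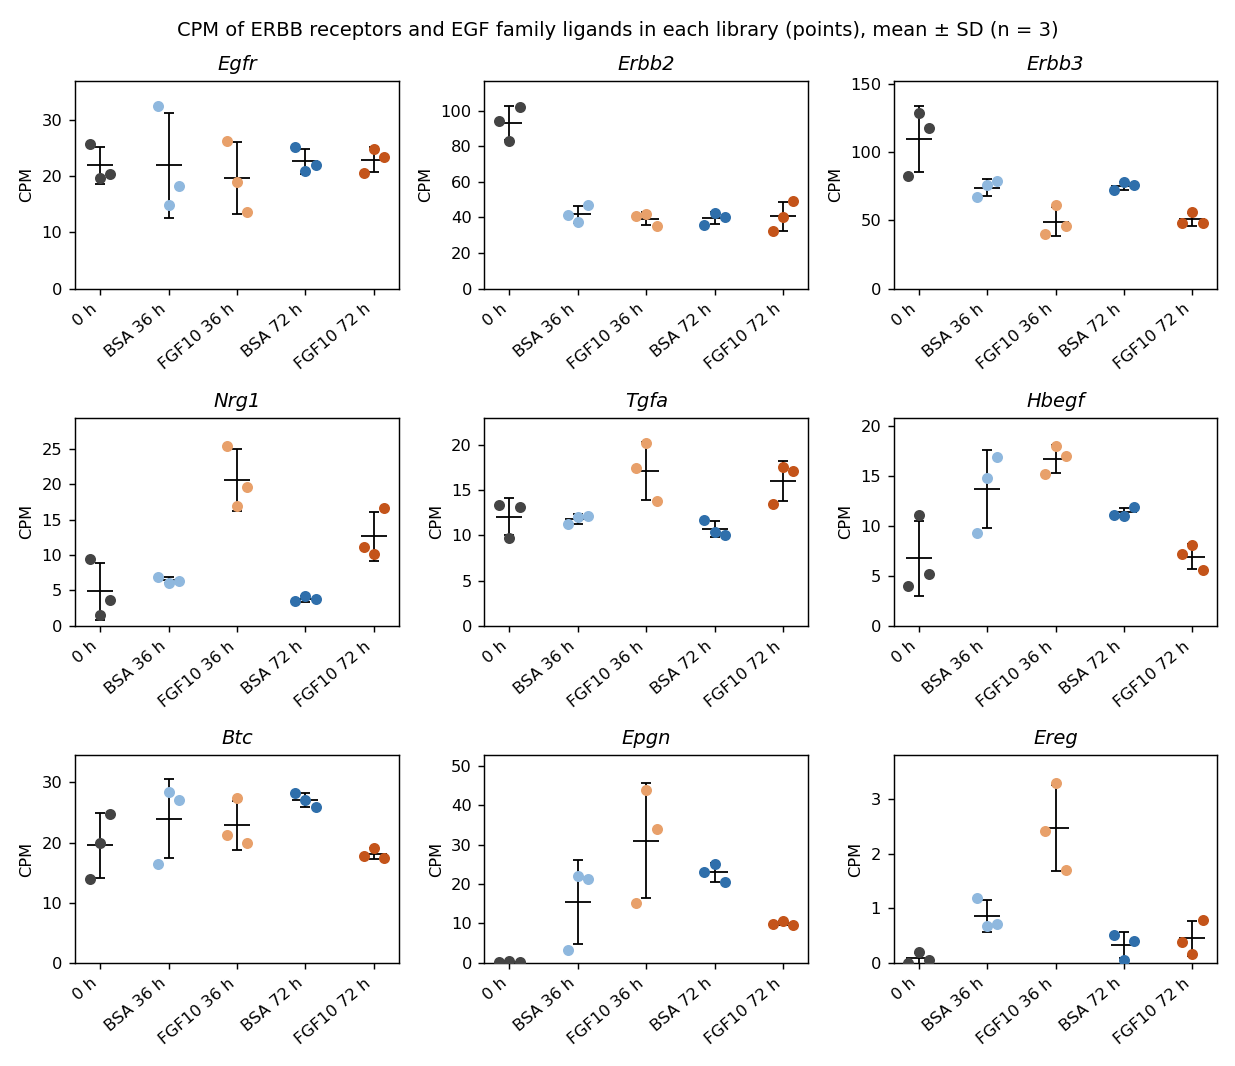
CPM (y axis) of the 3 receptor genes and 6 ligand genes in the 15 libraries, by group (x axis); points are libraries, horizontal bars are means and error bars are SD, n = 3. Erbb2 at 0 h lies at 83.0 to 102 CPM, above all later libraries (32.5 to 49.0 CPM), and Nrg1 with FGF10 lies above BSA at both times.

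Erbb2 (chr11:98303296-98328542, GRCm39, plus strand), the partner receptor, stood at 94.4, 83.0 and 102 CPM in the 0 h libraries. It stood at 41.2, 37.3 and 46.9 CPM with BSA at 36 h and at 40.7, 42.0 and 35.0 CPM with FGF10. At 72 h it stood at 35.7, 42.5 and 40.4 CPM with BSA and at 32.5, 40.1 and 49.0 CPM with FGF10. Every 0 h library was above every later one, and the later groups overlapped each other. The means were 93.1 ± 9.43 CPM at 0 h (SD, n = 3) and between 39.2 ± 3.69 and 41.8 ± 4.80 CPM later (SD, n = 3 each). Against 0 h, Erbb2 fell by 1.16 ± 0.15 with BSA at 36 h (adjusted p = 7.32e-05) and by 1.25 ± 0.15 with FGF10 at 36 h (adjusted p = 2.55e-05). At 72 h it fell by 1.24 ± 0.15 with BSA (adjusted p = 3.72e-05) and by 1.20 ± 0.15 with FGF10 (adjusted p = 3.81e-05). These 4 comparisons share the 0 h libraries. All 4 calls held under each of the 23 other settings. FGF10 and BSA differed by -0.09 at 36 h (95% interval -0.43 to 0.24) and by 0.04 at 72 h (-0.30 to 0.37).

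Erbb3 (chr10:128403392-128425521, minus strand), the neuregulin receptor, stood at 82.3, 129 and 118 CPM at 0 h. With BSA it stood at 66.8, 75.9 and 78.9 CPM at 36 h and at 72.2, 78.2 and 75.8 CPM at 72 h. With FGF10 it stood at 40.3, 61.3 and 45.9 CPM at 36 h and at 47.9, 56.1 and 48.1 CPM at 72 h. The groups formed 3 levels without overlap: 0 h above BSA, and BSA above FGF10 at either time. Against 0 h, Erbb3 fell by 0.57 ± 0.17 with BSA at 36 h (adjusted p = 0.0234) and by 0.54 ± 0.17 with BSA at 72 h (adjusted p = 0.0324). With FGF10 it fell by 1.15 ± 0.17 at 36 h (adjusted p = 0.000153) and by 1.11 ± 0.17 at 72 h (adjusted p = 0.000244). The FGF10 calls against 0 h held in all 23 settings. The BSA calls were lost in some, for example without 0 h replicate 2 (adjusted p = 0.106 at 36 h and 0.133 at 72 h) or without 0 h replicate 4 (0.0761 and 0.0967).

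FGF10 against BSA gave Erbb3 a difference of -0.59 ± 0.17 at 36 h (adjusted p = 0.0861) and -0.57 ± 0.17 at 72 h (adjusted p = 0.0613), so the difference between beads did not pass at either time. At 72 h it passed without FGF10 36 h replicate 4 (adjusted p = 0.0439). It passed at both times in the DESeq2 Wald test (adjusted p = 0.045 and 0.0277) and in limma voom (0.018 and 0.00199). It also passed without 0 h replicate 1 (0.0338 and 0.0217) and without FGF10 36 h replicate 3 (0.0308 and 0.0384).

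Egfr (chr11:16702203-16868158, plus strand), the receptor for the 5 ligands other than Nrg1, stood at 25.7, 19.7 and 20.5 CPM at 0 h. With BSA it stood at 32.7, 14.96 and 18.3 CPM at 36 h and at 25.2, 20.98 and 22.0 CPM at 72 h. With FGF10 it stood at 26.4, 19.1 and 13.7 CPM at 36 h and at 20.5, 24.9 and 23.4 CPM at 72 h. All groups overlapped, and the spread within the 36 h groups was wider than any distance between group means, which ran from 19.7 ± 6.36 to 22.9 ± 2.23 CPM (SD, n = 3). None of the 9 comparisons passed under the main test or any other setting. Against 0 h the 95% intervals lay between -0.74 and 0.64 on the log2 scale, and for FGF10 against BSA between -0.74 and 0.60.

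Epgn (chr5:91175323-91183074, plus strand), an EGFR ligand of low affinity, had 2, 4 and 6 counts in the 0 h libraries, or 0.0845, 0.387 and 0.330 CPM. The BSA libraries stood at 3.21, 22.0 and 21.3 CPM at 36 h and at 23.1, 25.2 and 20.4 CPM at 72 h. The FGF10 libraries stood at 15.2, 43.9 and 33.9 CPM at 36 h and at 9.82, 10.6 and 9.63 CPM at 72 h. Every later library was above every 0 h library, and replicate 1 was the lowest library in both 36 h groups. Against 0 h, Epgn rose by 6.0 ± 0.83 with BSA at 36 h (63.9-fold, adjusted p = 0.000253) and by 6.56 ± 0.82 with BSA at 72 h (94.3-fold, adjusted p = 0.000131). With FGF10 it rose by 7.0 ± 0.83 at 36 h (128-fold, adjusted p = 5.77e-05) and by 5.36 ± 0.84 at 72 h (41.1-fold, adjusted p = 0.000497). Epgn entered the test through the later groups, since no 0 h library reached the 0.608 CPM that the filter asked for. The calls for BSA at 36 h and FGF10 at 72 h were lost in limma voom alone (adjusted p = 0.0509 and 0.0761), and the other 2 held in all settings.

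Between the beads, Epgn had estimates of opposite sign at the 2 times, 1.00 ± 0.54 at 36 h (adjusted p = 0.346) and -1.20 ± 0.55 at 72 h (adjusted p = 0.213). At 72 h all FGF10 libraries were below all BSA libraries, at 9.63 to 10.6 CPM against 20.4 to 25.2 CPM. At 36 h the groups overlapped. The 72 h difference passed without BSA 36 h replicate 1 (-1.20, adjusted p = 0.0329), a library outside that comparison which entered through the shared estimate of spread. It also passed when only the compared groups were fitted (adjusted p = 1.02e-05). From 36 h to 72 h with FGF10, Epgn differed by -1.63 ± 0.55 (adjusted p = 0.164), and by the same -1.63 with an adjusted p of 0.0129 without BSA 36 h replicate 1.

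Ereg (chr5:91222481-91241505, plus strand), which encodes epiregulin, was the member at the lowest level. It had 0, 2 and 1 counts at 0 h. With FGF10 at 36 h it had 37, 60 and 27 counts, or 2.42, 3.29 and 1.71 CPM, above all other libraries. With BSA at 36 h it had 1.19, 0.672 and 0.714 CPM. At 72 h it had 0.513, 0.0589 and 0.404 CPM with BSA and 0.385, 0.169 and 0.792 CPM with FGF10, and both groups overlapped 0 h. Over the group, with 3 counts at 0 h, the ratio of levels to 0 h was 14.9 with BSA at 36 h (95% counting interval 4.77 to 74.9) and 43.7 with FGF10 at 36 h (14.6 to 215). At 72 h it was 5.82 (1.70 to 30.9) with BSA and 8.33 (2.49 to 43.6) with FGF10. These intervals cover counting error only.

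Ereg passed against 0 h with BSA at 36 h (adjusted p = 0.00611), with FGF10 at 36 h (adjusted p = 0.000233) and with FGF10 at 72 h (adjusted p = 0.0359), but not with BSA at 72 h (adjusted p = 0.0956). The fitted differences were 3.67 and 5.19 at 36 h and 2.80 for the 72 h call. They depended on single 0 h libraries, at 2.90, 4.42 and 2.02 without 0 h replicate 1 and 4.78, 6.30 and 3.90 without 0 h replicate 2, and the last was 2.11 without FGF10 72 h replicate 4. Ereg entered the test through the 36 h groups, in which all 6 libraries reached 0.608 CPM. The FGF10 72 h call was lost without 0 h replicate 1 (adjusted p = 0.128), 0 h replicate 4 (0.0947) or either of FGF10 72 h replicates 2 and 4 (0.0564 and 0.182). It was also lost in limma voom (0.166), and Ereg did not pass the filter when only these groups were fitted. With BSA at 72 h, Ereg passed without 0 h replicate 2 (0.0492) or BSA 72 h replicate 2_2 (0.0439). Within FGF10, Ereg at 72 h differed from 36 h by -2.40 ± 0.62 (adjusted p = 0.0687), and by -2.39 with an adjusted p of 0.0424 without 0 h replicate 1. FGF10 and BSA did not overlap at 36 h (1.52 ± 0.58, adjusted p = 0.167). The Ereg exons share 141 bases, 3.42% of their length, with the antisense gene Gm19610. Strand was ignored in counting, and fragments that matched both genes were left out.

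Hbegf (chr18:36637980-36648858, minus strand), which encodes heparin-binding EGF-like growth factor, stood at 4.01, 11.03 and 5.17 CPM at 0 h. In the BSA libraries it stood at 9.28, 14.8 and 16.9 CPM at 36 h and at 11.1, 11.02 and 11.9 CPM at 72 h. In the FGF10 libraries it stood at 15.2, 17.9 and 17.02 CPM at 36 h and at 7.12, 8.02 and 5.60 CPM at 72 h. The 36 h FGF10 libraries were above all 0 h libraries, and the 72 h FGF10 libraries lay within the 0 h range. Hbegf rose against 0 h by 1.05 ± 0.30 with BSA at 36 h (adjusted p = 0.0183) and by 1.35 ± 0.31 with FGF10 at 36 h (adjusted p = 0.00323). Only the FGF10 call held in all settings. The BSA call was lost without 0 h replicate 1 (adjusted p = 0.0636), 0 h replicate 4 (0.076), BSA 36 h replicate 2 (0.0526) or BSA 36 h replicate 3 (0.0802). With BSA at 72 h the difference was 0.79 ± 0.30 (adjusted p = 0.0737), and 1.30 (adjusted p = 0.00192) without 0 h replicate 2.

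From 36 h to 72 h with FGF10, Hbegf fell by 1.28 ± 0.30 (adjusted p = 0.0449), and the groups did not overlap. It was the 1 member called within a bead type. The call lay close to the threshold and was lost without any 1 of the 6 FGF10 libraries, with an adjusted p of 0.0676 to 0.159, and without BSA 36 h replicates 2 or 3 or any BSA 72 h library (0.055 to 0.0732). Between beads at 72 h, Hbegf was 6.92 ± 1.22 CPM with FGF10 and 11.3 ± 0.487 CPM with BSA (SD, n = 3 each), without overlap (-0.72 ± 0.30, adjusted p = 0.167).

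Nrg1 (chr8:32304579-33374825, minus strand) was the only ligand of ERBB3 among the members. It stood at 9.42, 1.55 and 3.58 CPM at 0 h. With BSA it stood at 6.96, 6.05 and 6.36 CPM at 36 h and at 3.44, 4.18 and 3.75 CPM at 72 h. With FGF10 it stood at 25.5, 16.9 and 19.7 CPM at 36 h and at 11.2, 10.1 and 16.6 CPM at 72 h. All 6 FGF10 libraries were above all BSA and 0 h libraries. The FGF10 means were 20.7 ± 4.38 CPM at 36 h and 12.6 ± 3.49 CPM at 72 h, against 6.46 ± 0.461 and 3.79 ± 0.374 CPM with BSA (SD, n = 3 each).

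Nrg1 was 1.74 ± 0.43 higher with FGF10 than with BSA at 72 h (95% interval 0.78 to 2.70, adjusted p = 0.0315) and stood 1.68 ± 0.42 above BSA at 36 h (0.75 to 2.61, adjusted p = 0.0522), just outside the threshold. The 72 h call was lost when any 1 of the 6 compared libraries was left out, with estimates of 1.49 to 1.88 and an adjusted p of 0.0583 to 0.155. It was also lost when the BSA 72 h libraries 2_1 and 2_2 were summed (0.102) and with no filter (0.103). The 36 h difference passed without 0 h replicate 1 (0.00344) or 0 h replicate 2 (0.00902), in limma voom (0.00252) and in the DESeq2 Wald test (0.00211). The summed basal markers were also higher in every FGF10 library than in every BSA library at both times (values above). At 0 h they summed to 10755 to 15519 CPM. At 72 h Krt14 averaged 11960 CPM with FGF10 and 3666 CPM with BSA, and means of Krt5, Krt17, Trp63 and Acta2 were also higher. Means of Myh11 (47.3 against 84.0 CPM), Cnn1 (115 against 248 CPM) and Oxtr (95.9 against 131 CPM) went the other way. Of the 8 basal markers, 0 were called higher and 1 lower with FGF10 at 36 h, against 0.954% and 1.39% of all tested genes. At 72 h 3 of these markers were called higher and 2 lower, against 3.01% and 2.98%. Their part in the Nrg1 difference was not tested.

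Against 0 h, Nrg1 rose by 2.04 ± 0.42 with FGF10 at 36 h (adjusted p = 0.00206) and by 1.33 ± 0.42 with FGF10 at 72 h (adjusted p = 0.0284). The first call held in all settings. Without 0 h replicate 1 the differences were larger, at 2.95 (adjusted p = 7.49e-06) and 2.24 (adjusted p = 9.15e-05). The 72 h call was lost without 0 h replicate 2 (adjusted p = 0.0513), 0 h replicate 4 (0.0995) or FGF10 72 h replicate 4 (0.114). With BSA, Nrg1 did not pass at 36 h (0.36 ± 0.42, adjusted p = 0.567) or 72 h (-0.41 ± 0.43, adjusted p = 0.542). Without 0 h replicate 1, which had the highest Nrg1 of that group, the BSA 36 h difference was 1.27 (adjusted p = 0.00788).

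Tgfa (chr6:86172205-86252701, plus strand), which encodes TGF-alpha, stood at 13.3, 9.68 and 13.2 CPM at 0 h. With BSA it stood at 11.2, 12.05 and 12.2 CPM at 36 h and at 11.8, 10.4 and 10.1 CPM at 72 h. With FGF10 it stood at 17.4, 20.2 and 13.9 CPM at 36 h and at 13.5, 17.6 and 17.1 CPM at 72 h. The FGF10 libraries were above all others at both times by small margins. Tgfa rose against 0 h with FGF10 at 36 h (0.50 ± 0.17, adjusted p = 0.0304), a call lost without 0 h replicate 2 (adjusted p = 0.127) or either of FGF10 36 h replicates 1 and 3 (0.0661 and 0.126). That call was also lost with no filter (0.0685) and with only the groups compared (0.120). FGF10 stood 0.54 ± 0.17 above BSA at 36 h (adjusted p = 0.108) and 0.58 ± 0.17 above it at 72 h (adjusted p = 0.0596), and neither passed. Both differences passed in limma voom (0.0346 and 0.00383) and in the DESeq2 Wald test (0.0397 and 0.0255). Without FGF10 36 h replicate 4 both also passed (0.0458 and 0.0285), and so did the 72 h difference without 0 h replicate 1 (0.0458) or 0 h replicate 2 (0.0481). An antisense gene, Gm43917, shares 118 bases (1.82%) of the Tgfa exons.

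Btc (chr5:91505120-91550853, minus strand), which encodes betacellulin, stood at 13.9, 19.9 and 24.7 CPM at 0 h. Levels with BSA were 16.5, 28.4 and 27.1 CPM at 36 h and 28.2, 27.0 and 25.9 CPM at 72 h. Levels with FGF10 were 21.2, 27.5 and 19.9 CPM at 36 h and 17.8, 19.2 and 17.5 CPM at 72 h. At 72 h the groups did not overlap (18.1 ± 0.905 CPM with FGF10 and 27.1 ± 1.15 CPM with BSA, SD, n = 3 each), with a difference of -0.58 ± 0.22 (adjusted p = 0.121). Btc passed no comparison in the main test. It passed at 72 h in limma voom (0.00652) and when only the 2 groups were fitted (0.000563), and against 0 h with BSA at 72 h (0.47 ± 0.22, adjusted p = 0.127) only without 0 h replicate 4 (0.68, adjusted p = 0.0477).

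**Figure D2:**
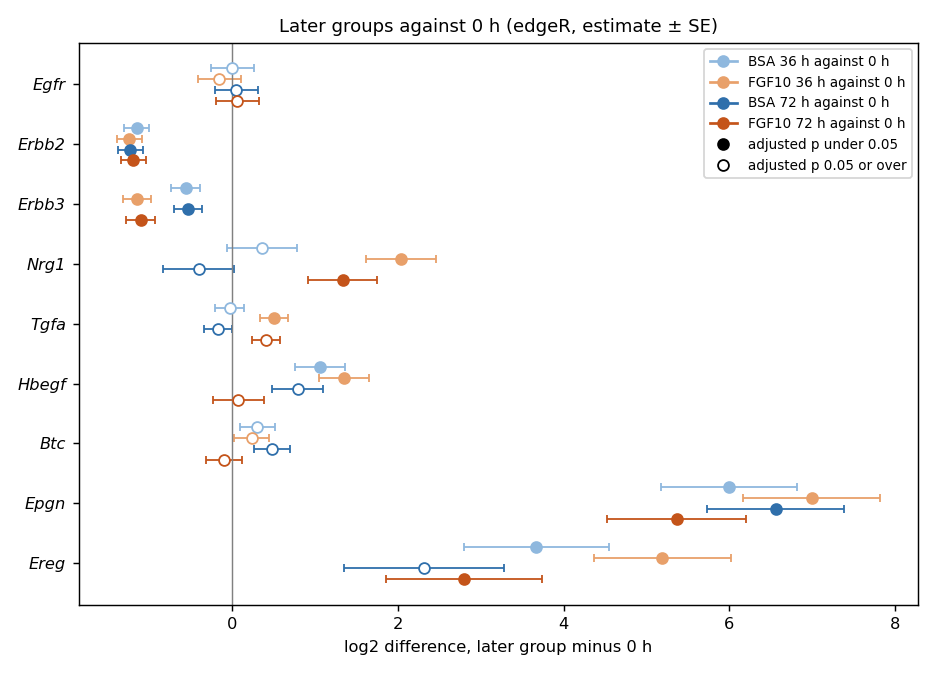
Log2 difference of each later group from 0 h (x axis) for each gene (y axis), points with bars of ± SE from edgeR, filled where the adjusted p is under 0.05. Erbb2 and Erbb3 lie left of 0 in all 4 comparisons, and Epgn lies right of 0 at 5.36 to 7.0.

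Counts of members are set beside those of all tested genes here and, between the beads, below. The members were chosen with earlier results of these data known, so these counts are descriptions. Epgn and Ereg also passed the filter only through later groups, in which they were higher. With BSA at 36 h, 3 of 9 members rose against 0 h (Epgn, Ereg and Hbegf) and 2 fell (Erbb2 and Erbb3), where 12.7% of all tested genes rose and 14.4% fell. With BSA at 72 h, 1 rose (Epgn) and the same receptors fell, against 12.2% and 13% of all genes. With FGF10 at 36 h, 5 rose (Epgn, Ereg, Hbegf, Nrg1 and Tgfa) and 2 fell, against 19.3% and 20.5%. With FGF10 at 72 h, 3 rose (Epgn, Ereg and Nrg1) and 2 fell, against 13.8% and 16%. Among the 9 members, no receptor rose and no ligand fell against 0 h. Outside them, the ligand gene Nrg4 fell in every later group (values below). The fall of Erbb2 and Erbb3 stood beside lower luminal markers, of which 5 to 7 of 10 fell in each of these comparisons and none rose. At 72 h the luminal sum was higher with FGF10 (17253 to 19226 CPM) than with BSA (13202 to 14455 CPM), where Erbb3 stood lower with FGF10. The part of the luminal markers in the receptor values was not tested.

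**Figure D3:**
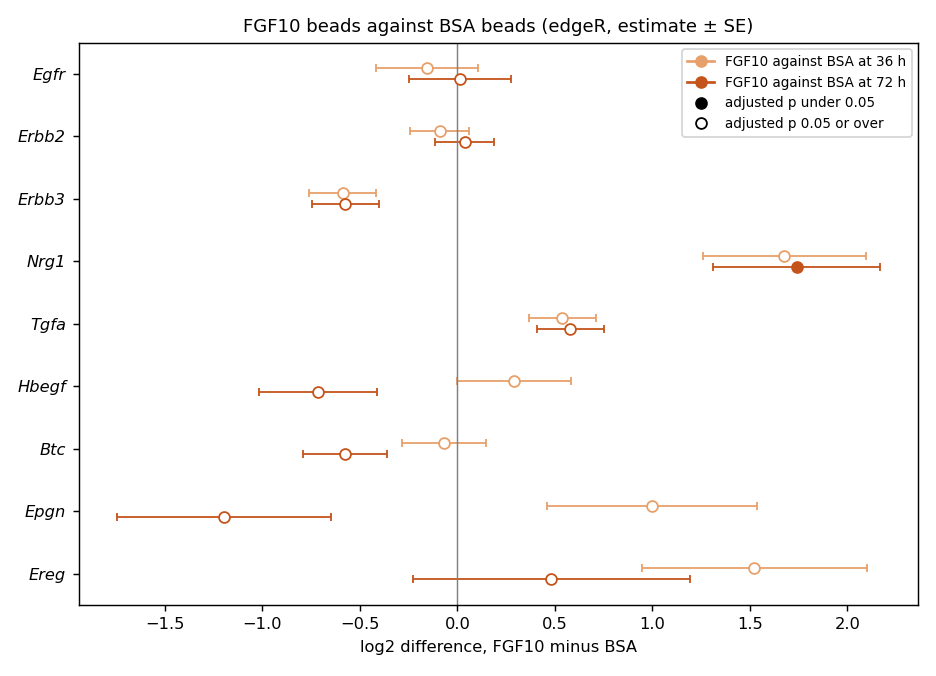
Log2 difference between FGF10 and BSA beads (x axis) at 36 h and 72 h for each gene (y axis), points with bars of ± SE from edgeR, filled where the adjusted p is under 0.05. Nrg1 at 72 h (1.74 ± 0.43) is the only filled point, and the estimates of Egfr, Erbb2, Epgn and Hbegf lie on opposite sides of 0 at the 2 times.

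Between the beads, 0 of 9 members were called at 36 h, where 0.954% of all tested genes were higher with FGF10 and 1.39% lower. At an unadjusted p under 0.05, 4 members passed at 36 h (Erbb3, Ereg, Tgfa and Nrg1), as did 18.7% of all genes. DESeq2 called 3 members and 6% of all genes there, and limma voom 4 members and 7.8%. At 72 h, 1 member was called higher and 0 lower, against 3.01% and 2.98% of all genes, and 6 had an unadjusted p under 0.05, as did 23.5% of all genes. The libraries of the 2 bead types did not overlap for 4 members at 36 h and for 6 at 72 h (Erbb3, Nrg1, Tgfa, Hbegf, Btc and Epgn). Over all tested genes, 19.4% did not overlap at 36 h and 43.7% at 72 h. The change of the FGF10 effect between times, tested directly, was called for 0 members and for 0% of all genes in either direction. In that test 998 genes (5.5%), 2 members among them, had an unadjusted p under 0.05, limma voom called 0 genes and DESeq2 called 18. The members were Epgn (-2.20 ± 0.77, adjusted p = 0.782) and Hbegf (-1.01 ± 0.42, adjusted p = 0.875). Within the BSA arm from 36 h to 72 h, 0 members were called, where 0.325% of all genes rose and 0.143% fell. There 0 members and 16% of all genes had an unadjusted p under 0.05. DESeq2 and limma voom also called 0 members, with 3.22% and 14.3% of all genes called. Within the FGF10 arm 1 member fell, Hbegf, and 0 rose, against 0.491% and 1.42% of all genes.

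Levels between genes were compared as CPM per kilobase of exon. At 0 h Erbb3 (18.2 ± 4.02, SD, n = 3) and Erbb2 (17.9 ± 1.81) were highest and overlapped, followed by Btc (4.32 ± 1.19). Egfr (1.94 ± 0.288), Tgfa (1.86 ± 0.318) and Hbegf (1.39 ± 0.778) came next and overlapped in turn, with all their libraries below those of Btc and above those of Nrg1. Nrg1 (0.314 ± 0.265), Epgn (0.148 ± 0.0890) and Ereg (0.0201 ± 0.0242) were lowest, and each overlapped the next. With BSA at 36 h, Erbb3 (12.3 ± 1.04), Epgn (8.58 ± 5.90) and Erbb2 (8.02 ± 0.922) overlapped in turn. Erbb2 lay above Btc (5.31 ± 1.45), and Epgn overlapped it. With BSA at 72 h, Epgn (12.7 ± 1.31) and Erbb3 (12.5 ± 0.505) led and overlapped, then Erbb2 (7.59 ± 0.669) and Btc (5.99 ± 0.255). With FGF10 at 36 h, Epgn led (17.2 ± 8.06) but overlapped Erbb3 (8.17 ± 1.81). With FGF10 at 72 h, Erbb3 (8.43 ± 0.777) and Erbb2 (7.78 ± 1.58) led again and Epgn came next (5.53 ± 0.273). Ereg was last in all 5 groups, and Nrg1 was next to last in the 4 later ones. The length used covers all listed exons of a gene, 15.4 kb for Nrg1 and 1.81 kb for Epgn, so the order depends on it. By mean CPM, Nrg1 with FGF10 at 36 h (20.7) stood above Egfr (19.7), Tgfa (17.2) and Hbegf (16.7).

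**Figure D4:**
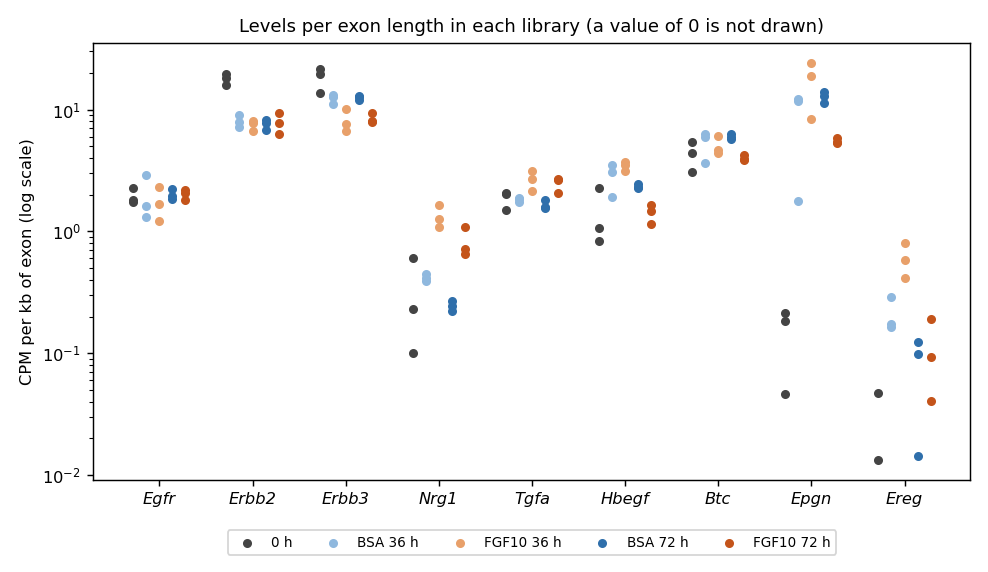
CPM per kilobase of exon (log y axis) of each gene (x axis) in each of the 15 libraries, coloured by group; a library at 0 is not drawn. Epgn has a mean of 0.148 at 0 h and 17.2 with FGF10 at 36 h, and Ereg is the lowest gene by mean in every group.

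Among members, the closest pair by Pearson's r of log2 CPM over the 15 libraries was Nrg1 and Tgfa (0.820), and Nrg1 with Erbb3 (-0.882) and Erbb2 with Epgn (-0.897) ran most opposite. These values describe 15 libraries in 5 groups, which share the difference between 0 h and later. Among 10471 genes averaging 5 CPM or more, Nrg1 was most like Smc4 (r = 0.969), Ndc1 (0.966) and Aurka (0.959) over the same libraries. Epgn was most like Agfg2 (0.961), Fosl2 (0.959) and Acer3 (0.946), and Ereg most like Nolc1 (0.948) and Heatr1 (0.923). Erbb2 was most like Arhgap1 (0.967), Erbb3 most like Adck5 (0.967) and Egfr most like Pard3b (0.957). Tgfa was most like Itgb1 (0.930), Hbegf most like Aen (0.891) and Btc most like Clcn3 (0.890).

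Epgn, Ereg and Btc lie within 375.5 kb on chromosome 5, together with Areg (chr5:91287458-91296291, plus strand), which encodes amphiregulin and is no member of the set. In map order the gaps were 39.4 kb from Epgn to Ereg, 46.0 kb from Ereg to Areg and 208.8 kb from Areg to Btc. Areg was the most abundant of the 4, at 46.9, 944 and 1442 CPM at 0 h. With BSA it stood at 273, 1232 and 898 CPM at 36 h and at 652, 667 and 715 CPM at 72 h. With FGF10 it stood at 202, 477 and 297 CPM at 36 h and at 453, 457 and 295 CPM at 72 h. Areg was lower with FGF10 than with BSA in all libraries at 72 h (-0.76 ± 0.85, adjusted p = 0.647) and not called in any of the 9 comparisons. Its 0 h replicate 1 and BSA 36 h replicate 1 lay far below the others of their groups. Of these 4 genes, Epgn rose in all later groups, Ereg in 3 of 4, and Btc and Areg in none, and these differences between genes were not tested.

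**Figure D5:**
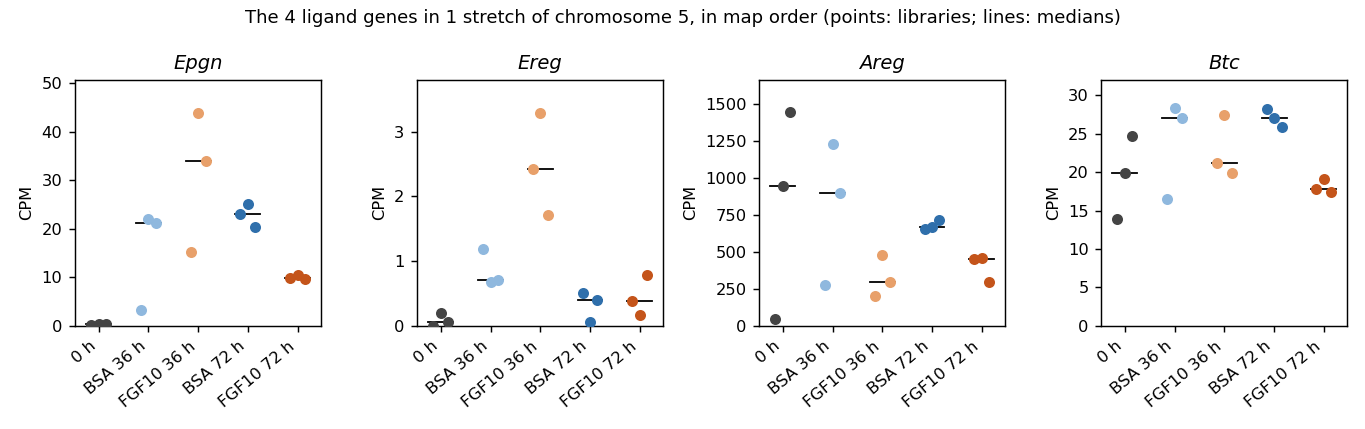
CPM (y axis) of the 4 ligand genes in 1 stretch of chromosome 5, in map order, in each library by group (x axis); points are libraries and lines are medians. Epgn is near 0 only at 0 h, Ereg is highest with FGF10 at 36 h (1.71 to 3.29 CPM), and Areg ranges from 46.9 to 1442 CPM within 0 h.

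Of the 6 other receptors and ligands of the pathway (Egf, Areg, Nrg2, Nrg3, Nrg4 and Erbb4), 5 were tested and Nrg3 was too low. Erbb4, the remaining receptor, fell against 0 h in all 4 groups, from 3.17 CPM at 0 h to between 0.262 and 1.15 CPM. It was the 1 receptor called between the beads, lower with FGF10 at 36 h (0.262 against 1.11 CPM, -2.05 ± 0.47, adjusted p = 0.0355). That call rests on few fragments. Erbb4 had 3, 5 and 5 counts in the FGF10 36 h libraries and 24, 14 and 19 with BSA. Nrg4, a ligand of ERBB4, fell in all 4 groups, from 7.48, 47.4 and 106 CPM at 0 h to 3.72 to 11.2 CPM later (-2.40 to -3.20, adjusted p = 0.00445 to 0.0213). Its 0 h replicate 1 lay within the later range. Nrg2, another neuregulin, was higher with FGF10 at 72 h (5.88 against 2.16 CPM, 1.43 ± 0.33, adjusted p = 0.0241), as Nrg1 was, and stood 1.14 ± 0.33 above BSA at 36 h (adjusted p = 0.0793). Egf stayed at 0.154 to 1.06 CPM in all libraries and was not called. Unlike those of the members, the calls of these genes were not followed through the other settings.

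The counts for the pathway lists below stand beside those over all tested genes, of which 12.2% to 19.3% rose and 13% to 20.5% fell against 0 h. Between the beads 0.954% were higher and 1.39% lower with FGF10 at 36 h, and 3.01% and 2.98% at 72 h. Of 11 genes for ligand release, 2 to 4 rose and 1 or 2 fell against 0 h in each later group. The proteases Adam8 and Adam12 rose and Adam10 fell in all 4. With FGF10 at 36 h, Adam12 rose over BSA, from 6.39 to 14.4 CPM (1.17 ± 0.26, adjusted p = 0.0301), and at 72 h Adam8 rose, from 6.49 to 12.6 CPM (0.96 ± 0.27, adjusted p = 0.0486). Adam17, the main sheddase of TGF-alpha, stood at 32.3 to 37.1 CPM in the group means and was not called. Of 28 adaptors and relay genes, 0 were called between the beads at 36 h. At 72 h 4 rose with FGF10 and 0 fell: Nras (0.69 ± 0.11, adjusted p = 0.00421), Hras (0.72 ± 0.14, adjusted p = 0.0108), Akt1 (0.55 ± 0.13, adjusted p = 0.0247) and Vav3 (0.70 ± 0.19, adjusted p = 0.0421). Against 0 h, 3 to 5 rose and 2 to 7 fell. Grb7, an adaptor that binds ERBB2 and whose gene lies near Erbb2, fell in all 4 groups, from 152 CPM to between 43.1 and 55.0 CPM (-1.46 to -1.81).

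Of 18 genes for receptor inhibition and turnover, 6 or 7 fell and 0 to 4 rose against 0 h. Errfi1, an inhibitor of EGFR and ERBB2, fell in all 4 groups, from 169 CPM to between 67.0 and 84.4 CPM, and so did Socs3, Cblc, Ptpn1 and Eps15. Between the beads 0 passed at 36 h and 1 at 72 h, Ubash3b (1.16 ± 0.30, adjusted p = 0.0371). Of 16 response genes of the ERK pathway, 3 to 7 rose and 5 or 6 fell against 0 h. Fos, an immediate early gene, stood at 12534 ± 8363 CPM at 0 h (SD, n = 3) and at 49.3 to 65.8 CPM in the later group means (-7.57 to -7.99), and Egr1, Klf6, Dusp4 and Dusp6 fell in all 4 groups. Ier3 rose in all 4. Between the beads, Dusp6, a phosphatase that limits ERK, was higher with FGF10 at 36 h (59.5 against 27.2 CPM, 1.13 ± 0.23, adjusted p = 0.0196) and at 72 h (45.0 against 23.3 CPM, 0.95 ± 0.23, adjusted p = 0.026). Ets2, a transcription factor, was lower at both times (-1.14 ± 0.24, adjusted p = 0.0234, and -1.16 ± 0.24, adjusted p = 0.0137). Within FGF10, Plaur (-2.58 ± 0.32, adjusted p = 0.00182), Fosl1 (-2.63 ± 0.54, adjusted p = 0.0203) and Lif (-1.55 ± 0.36, adjusted p = 0.0409) fell from 36 h to 72 h, as Hbegf did. Plaur also fell with BSA (-1.86 ± 0.31, adjusted p = 0.0313). The lists were chosen with results of these data known, so their counts are descriptions. Calls of single list genes were not followed through the other settings, as those of the members were.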

How the data were processed

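The RNA of 15 libraries (5 groups of 3) was made into libraries with an Illumina stranded mRNA kit, per the labels. The values are raw fragment counts per gene, which the authors deposited as 1 table. FeatureCounts 2.0.1 wrote it over exons by gene name, per the file headers, pairing reads, ignoring strand and leaving out fragments with several matching genes or places. The exon length in that table gave CPM per kilobase. The submitters' processing notes list FastQC, cutadapt 1.9.1, HISAT2 2.2.1, HTSeq, DESeq2 and the build GRCm39. Where the notes give HTSeq as the counter, the header's tool was taken instead.

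Libraries held 11965322 to 24261233 counts. The filter on low counts was filterByExpr, with a minimum count of 10 and a minimum total of 15. After TMM scaling, 1 fit of all groups used the robust quasi-likelihood test of edgeR 4.0.16 (R 4.3.3), with Benjamini-Hochberg adjustment over 18140 genes and a threshold of 0.05. SE was taken as the log2 difference divided by the root of the F statistic. Scripts were tested on simulated data. The text names the 9 members, called genes of the pathway lists and, for likeness, up to 3 genes with the highest Pearson's r. Members and lists were chosen with earlier results of these data known. For the libraries labelled 2_1 and 2_2, the chi-square per gene averaged 4.6 (17121 genes), where sampling noise alone gives 1, and it was 10.5 and 12.9 against the remaining library of their group. They were kept apart, though they may come from 1 culture. Other settings, 23 in all, used DESeq2 size factors, no filter, at least 10 counts in 3 libraries, a replicate block, 2_1 and 2_2 summed, only the groups compared, DESeq2 1.42.0 (Wald test), voom of limma 3.58.1 with a weight per sample, and each library left out.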

Additional observations from a re-analysis of the deposited data

How the results depend on the processing

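Of 81 values (9 genes in 9 comparisons), 22 were called, and 12 of those kept the call under all 23 alternatives. The other 10 lost it under at least 1, 19 of the 59 uncalled values were called under at least 1, and 0 called values changed sign. For FGF10 against BSA at 36 h, 0 members were called, against 1 with DESeq2 size factors or only the groups compared, 3 with the replicate block or DESeq2, and 4 with limma voom. Leaving out a library gave 0 to 2. At 72 h 1 was called, against 0 with 2_1 and 2_2 summed, 3 with the replicate block or DESeq2, 5 with limma voom and 6 with only the groups compared, and 0 to 3 without a library. The change between times had 0, or 1 (Epgn) with the replicate block. BSA 36 h against 0 h had 5, or 3 with only the groups compared and 3 to 5 without a library. FGF10 72 h against 0 h had 5, or 3 with limma voom and 3 to 5 without a library. It had 3 with only the groups compared, where Ereg was not tested. BSA 72 h against 36 h had 0, or 1 (Nrg1, lower) with only the groups compared. FGF10 72 h against 36 h had 1, or 0 with 2_1 and 2_2 summed, 2 with no filter or the replicate block, 3 with limma voom or DESeq2, and 0 to 2 without a library. The causes were not tested. Fits of only the groups compared use fewer samples.

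The labels do not say that replicate numbers mark a shared source. Deviations of same-numbered libraries correlated at -0.158 to 0.449 over 21 pairs (median 0.0266), against -0.293 to 0.202 over 69 other pairs. Between BSA and FGF10 at 36 h the same-numbered values were 0.449 for replicate 1 and 0.286 for replicate 3. Of 15 libraries, 9 were closest to their own number, so a pairing of some of them is a hint from the data. With the replicate block the Nrg1 difference at 36 h passed (1.47, adjusted p = 0.0446), as did Epgn (1.39, adjusted p = 0.00728, and -1.04, adjusted p = 0.0199) and Erbb3 (adjusted p = 0.0351 and 0.0301) at both times. Epgn also passed from 36 h to 72 h with FGF10 (-2.21, adjusted p = 0.00052), and the calls of Ereg for FGF10 at 72 h (0.0581) and Tgfa for FGF10 at 36 h against 0 h (0.0688) were lost.

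Over all genes the count called for FGF10 against BSA at 36 h (425) was 78 with only the groups compared, 1415 in limma voom and 1088 in DESeq2, and at 72 h (1087) it was 277 with 2_1 and 2_2 summed, 5025, 4824 and 1977. For BSA 72 h against 36 h (85) it was 217 with no filter, 0 summed, 1182, 2586 and 584. For FGF10 72 h against 36 h (346) it was 671 with the replicate block, 161 with only the groups compared, 874 in limma voom and 779 in DESeq2. FGF10 36 h against 0 h (7225) gave 3847 with only the groups compared. Leaving out 1 library gave 127 to 852 for FGF10 against BSA at 36 h and 148 (without FGF10 72 h replicate 4) to 1950 (without FGF10 36 h replicate 4) at 72 h. It gave 0 to 569 for BSA 72 h against 36 h and 99 to 434 for FGF10. Depth limits Ereg, with 3 counts at 0 h.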
